A study of Homo sapiens with 24 samples.

Results

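The OVCAR8 cultures kept under EPZ015666 were compared between day 5 and day 3, across all genes. The comparison used 4 of the 24 libraries of the study, chosen by the line, compound and day in their labels. They are drug day 3 libraries A and B and drug day 5 libraries A and B. OVCAR8 is an established line from a human ovarian carcinoma. EPZ015666 inhibits the arginine methyltransferase PRMT5 and was given at 5 µM. As background for the same days, 4 OVCAR8 libraries had received the DMSO vehicle for 3 or 5 days, and as a second line under the drug, 4 libraries of the breast cancer line BT549 had received 5 µM EPZ015666 for 3 or 5 days. The study also held ovarian COV362 and breast MDAMB436 cells at day 5. Each line is a single established culture, so differences between lines may belong to these lines alone. Stranded sequencing of poly(A) RNA gave each level as RPKM, reads scaled by gene length and by library size. Nothing in the labels tells if A and B came from separate cultures. The p-values thus rest on a spread between libraries that may be technical.

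PRMT5 places symmetric dimethyl marks on arginines of histones and of the Sm proteins of the spliceosome, in a complex with WDR77 and CLNS1A. Its inhibition is known to slow proliferation and to alter splicing in many tumour lines. Cells in culture also change with time alone, as density rises and medium is used up, and genes of the cell cycle, of nutrient sensing and of inflammation are known to respond to this. In bulk RNA, fewer cells in a state and less RNA per cell cannot be told apart.

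Promoters are shown for 6 genes of the groups described below, because each holds the letters of a motif known for its group. They are the 250 bases before the gene's start from RefSeq on GRCh38.p14, 5′ to 3′ on the gene's strand, with each match to the motif, read on either strand, in capitals. MCM7, a subunit of the replicative helicase (chr7:100101398-100101647, minus strand), shows the E2F motif, searched as TTTCCCGC, TTTGGCGC, TTTCGCGC and TTTGCCGC. CDC20, an activator of the anaphase-promoting complex (chr1:43358731-43358980, plus strand), shows the cell cycle homology region, TTTGAA. HSPA5, the main chaperone of the endoplasmic reticulum (chr9:125241344-125241593, minus strand), and CALR, the lectin chaperone calreticulin (chr19:12938359-12938608, plus strand), show the endoplasmic reticulum stress element, searched as CCAAT and CCACG with 9 bases of any kind between them. NFKBIA, the inhibitor of NF-kB (chr14:35404750-35404999, minus strand), shows the NF-kB motif, searched as GGGA and TTCC with 2 bases between them. TXNIP, an inhibitor of glucose uptake and thioredoxin (chr1:145996580-145996829, minus strand), shows the carbohydrate response element, searched as 2 copies of CACGNG with 5 bases between them, where N is any base.
MCM7: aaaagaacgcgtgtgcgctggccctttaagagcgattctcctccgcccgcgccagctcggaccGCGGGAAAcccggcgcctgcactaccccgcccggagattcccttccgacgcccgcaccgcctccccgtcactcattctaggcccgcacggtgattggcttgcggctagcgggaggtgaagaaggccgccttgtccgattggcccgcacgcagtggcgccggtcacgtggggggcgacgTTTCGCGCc
CDC20: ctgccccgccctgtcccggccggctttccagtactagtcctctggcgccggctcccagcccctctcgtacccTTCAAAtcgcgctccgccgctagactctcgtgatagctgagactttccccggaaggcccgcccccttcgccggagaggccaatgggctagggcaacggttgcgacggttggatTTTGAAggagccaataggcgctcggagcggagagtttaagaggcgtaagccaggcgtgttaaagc
HSPA5: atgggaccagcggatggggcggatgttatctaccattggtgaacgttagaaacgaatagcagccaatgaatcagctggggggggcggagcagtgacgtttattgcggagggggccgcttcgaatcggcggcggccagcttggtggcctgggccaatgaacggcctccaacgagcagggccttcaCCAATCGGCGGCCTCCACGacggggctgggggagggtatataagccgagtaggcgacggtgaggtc
CALR: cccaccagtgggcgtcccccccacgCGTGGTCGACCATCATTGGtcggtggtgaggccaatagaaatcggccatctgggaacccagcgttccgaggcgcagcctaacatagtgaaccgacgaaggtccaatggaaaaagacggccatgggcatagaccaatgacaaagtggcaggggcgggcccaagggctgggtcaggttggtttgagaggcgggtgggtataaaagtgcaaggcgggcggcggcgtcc
NFKBIA: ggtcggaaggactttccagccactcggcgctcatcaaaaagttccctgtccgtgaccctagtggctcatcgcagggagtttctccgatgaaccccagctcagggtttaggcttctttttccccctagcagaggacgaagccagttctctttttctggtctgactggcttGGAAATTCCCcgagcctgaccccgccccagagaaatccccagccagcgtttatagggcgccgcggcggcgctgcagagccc
TXNIP: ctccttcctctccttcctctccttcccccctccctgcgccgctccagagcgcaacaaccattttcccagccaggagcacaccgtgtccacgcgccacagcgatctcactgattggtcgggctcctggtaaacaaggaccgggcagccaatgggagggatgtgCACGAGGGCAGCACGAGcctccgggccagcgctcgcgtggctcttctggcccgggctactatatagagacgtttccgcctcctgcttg

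Both strands of windows from 250 bases before to 50 after the start were searched for 27305 RefSeq gene symbols. The E2F letters stood in 3.33% of all promoters, in 6.28% of those of genes tested and in 12 of the 20 DNA replication genes with a promoter in the table. TTTGAA stood in 15.4% of all promoters, in 8.65% of those of genes tested and in 14 of 23 mitosis genes. The endoplasmic reticulum stress element stood in 22 promoters (0.0806%) and in 8 of those of genes tested (0.179%). Of the 17 genes of the endoplasmic reticulum stress list with a promoter 6 held it (HSPA5, HSP90B1, CALR, CANX, CRELD2 and XBP1). The NF-kB letters stood in 1.63% of promoters, in 1.21% of those of genes tested and in 2 of 5 listed targets, IL6 and NFKBIA. The carbohydrate response element stood in 20 promoters (0.0733%) and in 8 of the 4476 promoters of genes tested (0.179%). TXNIP and GFPT1, the entry enzyme of hexosamine synthesis, held it among the 313 genes with a promoter that were higher at day 5. Of the 549 lower genes with a promoter 1 held it. GFPT1 had an adjusted p of 0.015, and up to 0.0782 in fits without 1 library. The lists were written from knowledge of these pathways, so a high share within them describes the lists. A match is a match of letters only, and binding was not measured.

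The 8 OVCAR8 libraries held 23.88 M to 30.49 M reads, recovered from the RPKM values. Drug day 5 library B stood apart by the share of its reads at 4 annotated genes of the ribosomal RNA locus on chromosome 21, which was 4.5%, against 0.214% in drug day 5 library A and a median of 0.29% over the 24 libraries. Its 10 most abundant genes took 9.93% of the reads, against 6.27% to 7.14% in the other OVCAR8 libraries. The keratins KRT8, KRT18 and KRT7, mesothelin and vimentin were present in each OVCAR8 library, and PAX8, WT1, KRT19, EPCAM and MUC16 were under 1 RPKM. The 3 endothelial markers measured summed to at most 0.0234 RPKM. Of 3 fibroblast markers measured COL1A1 alone passed 1 RPKM (49.03 to 58.49 RPKM), with COL1A2 at most at 0.00214 RPKM and LUM at 0.08 RPKM on average.

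Under EPZ015666, 431 of 6328 tested genes were higher at day 5 than at day 3 (6.81%) and 709 were lower (11.2%), together 18% of the genes tested (limma, adjusted p under 0.05). Of the gene lists, DNA replication, mitosis, SR protein, hnRNP and CLK, ribosome biogenesis and heat shock genes had at least 8 members lower and none higher. Class I antigen presentation, NF-kB target, endoplasmic reticulum stress and aminoacyl-tRNA synthetase genes had at least 4 higher and none lower. Most changes were small. The median size of a change was 0.19 on the log2(RPKM + 1) scale among the genes that rose and 0.20 among those that fell, and 14 rises and 8 falls reached 1.5-fold on that scale. Both day 5 libraries lay on the same side of both day 3 libraries for each of these 1140 genes, as they did for 63.1% of all genes tested. With median-of-ratios scaling in place of the deposited scaling the calls were 545 higher and 545 lower, so the excess of falls depends on the scaling. Rescaling each library to its recovered reads outside the ribosomal RNA locus gave 455 higher and 727 lower. That setting also replaced the deposited library size, of which the recovered reads made 94.79% to 99.03% in the OVCAR8 libraries. The shifts it gave therefore cannot be credited to the locus alone.

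The number of calls depended on the 4 drug libraries and on both DMSO libraries of day 3. Without drug day 5 library B limma called 90 genes higher and 144 lower, and without library A of that day 165 and 236. Leaving out drug day 3 library A gave 176 and 278, and leaving out library B of that day 175 and 251. The fit without DMSO day 3 library A called 271 and 436 genes, and that without library B of that group 268 and 432. Without drug day 5 library B 1138 of the called genes could be tested, and the median size of their change was 0.19 against 0.20 with it. All kept their direction, which leaving out 1 library could not change, because the days did not overlap in any of them. A named gene below that is said to have risen or fallen under the drug, with no further remark, stayed past the threshold in each of the 8 fits that left out 1 OVCAR8 library. For others the highest adjusted p over those fits is given.

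TXNIP, which lies on chromosome 1 from 145992435 to 145996600 (GRCh38, GENCODE v29, as for the positions that follow), measured 10.8 and 12.1 RPKM in drug libraries A and B at day 3 and 25.2 and 26.6 RPKM at day 5. Both day 5 libraries were far above both day 3 libraries. Its level rose 2.26-fold (log2 change 1.11 ± 0.075 SE, n = 2 libraries a group, adjusted p = 0.00194 by limma). IL32, a cytokine gene induced by inflammation, measured 4.93 and 5.3 RPKM at day 3 and 11.1 and 11.9 RPKM at day 5, with no overlap (2.25-fold, 1.03 ± 0.047, adjusted p = 0.00129). ADAMTS1, a secreted protease of the matrix, rose from 3.01 and 3.26 to 5.7 and 6.13 RPKM. BHLHE40, a transcription repressor of the circadian clock and of hypoxia, rose from 21.7 and 21.6 to 33.2 and 33.1 RPKM. In both genes the gap between the days was several times the gap between replicates.

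The 12 largest rises further held NFKBIA (1.61-fold), NFKB2 (1.48-fold), HLA-B (1.55-fold), the class I pseudogene HLA-H (1.64-fold), TAPBP, RPS27, FTH1P7 and RPS10P3. TAPBP, the tapasin gene, went 1.73-fold higher with an adjusted p of 0.00819, and 0.0523 without drug day 5 library B. RPS27, a ribosomal protein gene with many processed copies, measured 5.38 and 6.19 RPKM at day 3 and 8.05 and 9.75 RPKM at day 5. Its adjusted p was 0.0174, and up to 0.0737 without drug day 5 library B or drug day 3 library A. For FTH1P7, a processed copy of the ferritin heavy chain gene, the same 2 omissions gave up to 0.0619. RPS10P3 kept its call in only 1 of the 8 fits. Reads of HLA-H, RPS27, FTH1P7 and RPS10P3 may be shared with near-identical copies. FTH1P10, another ferritin copy that was named after its values were seen, measured 1.17 and 1.06 RPKM at day 3 and 4.92 and 3.12 RPKM at day 5, while FTH1 itself rose 1.3-fold.

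Among genes with at least 5 RPKM in the higher group and no clone-based symbol, ID1 and CCND1 had the largest log2(RPKM + 1) falls. ID1, an inhibitor of differentiation induced by BMP signals, lies on chromosome 20 from 31605283 to 31606515. Its drug libraries measured 60.8 and 60.6 RPKM at day 3 and 38.4 and 34.8 RPKM at day 5. The replicates were close at both days and the days did not overlap (0.603-fold, log2 change -0.72 ± 0.049, adjusted p = 0.00194 by limma). ID3, its relative, fell from 20.2 and 20.6 to 13.2 and 13.7 RPKM. CCND1, the gene of cyclin D1, which drives entry into the cell cycle, fell from 16.9 and 16 to 9.46 and 9.86 RPKM (0.586-fold, -0.71 ± 0.044, adjusted p = 0.00151). ADM, a hypoxia-induced peptide hormone gene, fell to 0.62-fold, and ORC6, a subunit of the origin recognition complex, to 0.629-fold. KRT7, a keratin of simple epithelia, fell to 0.698-fold, SPDL1, which brings dynein to kinetochores, to 0.701-fold, and ZNF714 and LY6K to 0.663-fold and 0.724-fold.

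ANKRD1 and THBS1, which are targets of YAP, fell to 0.719-fold and 0.674-fold. TIMM10, a chaperone of mitochondrial import, went to 0.695-fold with an adjusted p of 0.0139. Its adjusted p reached 0.0678 in the fits without drug day 5 library A, drug day 5 library B or drug day 3 library B. PPME1, a methylesterase of protein phosphatase 2A, was named after its values were seen for the size of its fall. It measured 3.56 and 3.57 RPKM at day 3 and 1.89 and 1.68 RPKM at day 5 under the drug (0.5-fold, log2 change -0.72 ± 0.040, adjusted p = 0.00129 by limma), and 0.723-fold in DMSO.

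**Figure D1:**
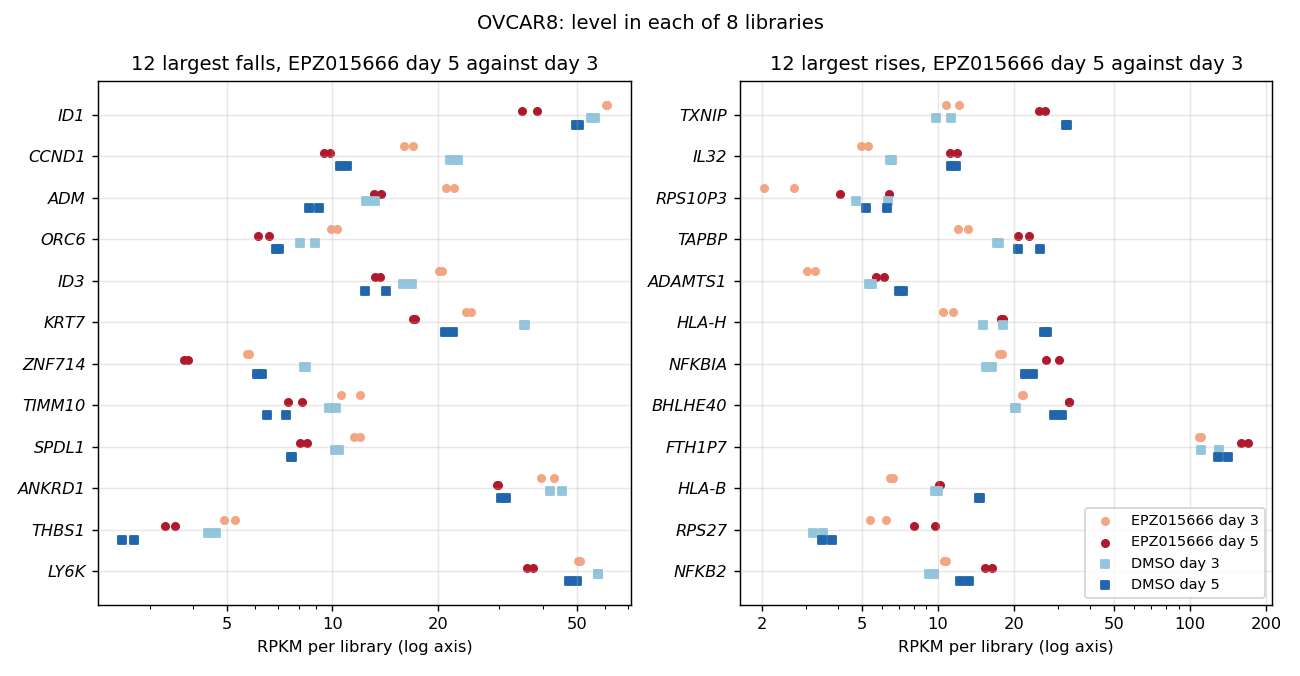
RPKM on a log axis of the 12 largest falls (left) and the 12 largest rises (right) under EPZ015666, with 1 point per library, circles for the drug and squares for DMSO, pale at day 3 and dark at day 5. In each gene both dark circles lie on 1 side of both pale circles, and for most genes the squares are shifted the same way, as in TXNIP, where the DMSO libraries went from 9.85 and 11.3 to 32.5 and 32.3 RPKM.

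Of 24 tested DNA replication genes 23 fell and 1 did not pass, with a list median of -0.25 against -0.01 over all genes tested. TK1, the thymidine kinase of the salvage pathway, measured 28.2 and 27.2 RPKM at day 3 and 20.8 and 20 RPKM at day 5 (0.736-fold, -0.42 ± 0.034, adjusted p = 0.00298 by limma). CDC6, which loads the helicase at origins, fell from 5.91 and 6.12 to 4.41 and 4.05 RPKM. The helicase genes MCM5 and MCM7 fell to 0.768-fold and 0.81-fold. CDT1 was the gene that did not pass, with a change of -0.19. Of the 24 genes 6 stayed past the threshold without drug day 5 library B, and the median was then -0.22.

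Among 30 tested mitosis genes 20 fell and none rose, with a median of -0.19. BIRC5, the survivin gene of the chromosomal passenger complex, measured 28.1 and 28.5 RPKM at day 3 and 21.9 in both libraries at day 5 (0.772-fold, -0.36 ± 0.026, adjusted p = 0.00213 by limma). The kinesin genes KIF11 and KIF23 fell to 0.826-fold and 0.825-fold. PLK1, a kinase of mitotic entry, went to 0.796-fold, with an adjusted p of 0.0556 without drug day 5 library B. Without that library 4 of the 30 passed. CDC20, whose promoter is printed above, measured 46.5 and 47.4 RPKM at day 3 and 40.4 and 39 RPKM at day 5. MKI67, the proliferation antigen, did not pass, at -0.11.

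In the G1/S list 5 of 11 genes rose and 2 fell in DMSO, while 2 rose and 4 fell under the drug. MYC rose from 18.2 and 17.4 to 22.2 and 23.7 RPKM (1.29-fold), opposite in direction to CCND1. E2F1, the transcription factor of the G1/S genes, went from 6.27 and 6.46 to 4.8 and 5.33 RPKM (adjusted p = 0.0148, up to 0.0692 in fits without 1 library). CDKN1A, the p21 inhibitor of cyclin-dependent kinases, went from 3.88 and 4.03 to 4.69 and 4.56 RPKM (adjusted p = 0.0185, up to 0.0898 in those fits). Of 11 p53 targets 3 passed, all higher, and in DMSO 5 were higher and 1 lower (median 0.09, under the drug 0.03). TIMELESS, which protects replication forks, fell from 4.25 and 4.07 to 3.2 and 3.06 RPKM, and 4 of 8 genes of the ATR-CHK1 checkpoint fell while 1 rose. In DMSO 5 of these 8 were lower and none higher (median -0.15, under the drug -0.12). Without drug day 5 library B 1 G1/S gene rose and 3 fell, no p53 target passed, and 1 checkpoint gene fell.

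Of 6 tested NF-kB targets and cytokines 4 rose, also in each fit without 1 library, and the list median was 0.41. IL6, an inflammatory cytokine gene on chromosome 7 from 22725884 to 22732002, measured 0.882 and 0.992 RPKM at day 3 and 2.83 and 2.92 RPKM at day 5 (3.07-fold, adjusted p = 0.00129 by limma). NFKBIA measured 17.5 and 18 RPKM and then 26.7 and 30.3 RPKM (1.61-fold, 0.65 ± 0.066, adjusted p = 0.0051). ICAM1, an adhesion receptor for leukocytes, rose from 1.45 and 1.51 to 1.99 and 2.09 RPKM. In each of these genes the days were separate by far more than the replicates.

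In the class I antigen presentation list 7 of 10 genes rose and none fell, with a median of 0.34. HLA-B, which encodes a heavy chain of the class I complex, measured 6.43 and 6.62 RPKM at day 3 and 10.1 and 10.2 RPKM at day 5 (1.55-fold, 0.56 ± 0.027, adjusted p = 0.00129 by limma). The days were far apart beside the replicates. HLA-E, a ligand of natural killer cell receptors, rose from 50.7 and 52.2 to 65.8 and 67.8 RPKM. Only 3 of the 10 passed without drug day 5 library B. Of 10 interferon-stimulated genes 2 passed, both higher, and the list median of 0.06 was below that of the class I list. Neither of the 2 passed without drug day 5 library B. Reads of the HLA genes may be shared among them.

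Of 18 genes of the endoplasmic reticulum stress list 9 rose and none fell, with a median of 0.13. HSPA5, on chromosome 9 from 125234853 to 125241330, measured 122 and 129 RPKM at day 3 and 156 and 153 RPKM at day 5 (1.23-fold, 0.30 ± 0.035, adjusted p = 0.00596 by limma). CALR rose from 101 and 97.6 to 125 and 122 RPKM, and XBP1, the transcription factor of this stress response, from 15 and 15.4 to 17.8 and 18.4 RPKM. SEL1L, an adaptor of protein removal from the endoplasmic reticulum, went 1.17-fold higher, with adjusted p up to 0.063 in fits without 1 library. Only 3 of the 18 passed without drug day 5 library B. The ATF4 target TRIB3, a pseudokinase, rose from 1.56 in both libraries to 2.13 and 2.17 RPKM, and 4 of 16 ATF4 targets rose while 1 fell. Of 20 aminoacyl-tRNA synthetase genes 5 rose, among them AARS at 1.22-fold, and none fell in limma, where 2 were lower at an unadjusted p under 0.05. Limma-voom on recovered reads called 9 higher and 1 lower. In DMSO 2 of these 20 genes were higher and 2 lower in limma, and of the 16 ATF4 targets 3 were higher and 4 lower. Without drug day 5 library B 1 gene of each of these last 2 lists rose.

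Heat shock proteins of the cytosol and mitochondria went the other way, with 8 of 16 lower and none higher (median -0.13). HSPA8, the constitutive HSP70, measured 224 and 231 RPKM at day 3 and 200 and 189 RPKM at day 5 (0.856-fold, adjusted p = 0.0202 by limma, up to 0.0952 in fits without 1 library), and none of the 16 passed without drug day 5 library B. Of 21 SR protein, hnRNP and CLK genes 10 fell and none rose (median -0.16), of which SRSF6 fell to 0.745-fold and HNRNPM to 0.819-fold. In the core spliceosome and snRNP assembly list 7 of 24 fell, and in ribosome biogenesis 9 of 16, with DKC1, the pseudouridine synthase dyskerin, at 0.827-fold. Without drug day 5 library B these 3 lists had 5, 1 and 1 genes past the threshold. Of 20 lysosome and autophagy genes 7 were higher and 1 was lower, with the cathepsin gene CTSB at 1.27-fold, and 1 passed without that library. In DMSO the same days gave 14 of the 20 lysosome genes higher and none lower (median 0.18). Of 16 heat shock genes 8 were lower and 1 higher there, and of 21 SR protein, hnRNP and CLK genes 13 were lower and 2 higher. In ribosome biogenesis 11 of 16 were lower in DMSO and none higher, and in the core spliceosome list 5 of 24 were lower and 4 higher.

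PRMT5, the target of the compound, measured 6.22 and 6.18 RPKM at day 3 and 5.64 and 5.57 RPKM at day 5. The days did not overlap, and the difference was small (0.905-fold, log2 change -0.12 ± 0.024, adjusted p = 0.0227 by limma, up to 0.115 in fits without 1 library). WDR77 went from 4.85 and 4.95 to 4.5 and 4.15 RPKM and CLNS1A from 1.34 and 1.42 to 1.36 in both libraries, neither past the threshold. Of 6 genes of the PRMT5 complex and its partners 3 fell and none did so without drug day 5 library B. RNA levels do not show the activity of the enzyme. MDM4, a p53 regulator whose splicing is known to respond to PRMT5 inhibition, had a mean of 0.589 RPKM and was not tested. Of the 13 genes of the mitochondrial genome none passed in limma, where 4 had an unadjusted p under 0.05, and all 13 were lower (median -0.27). Limma-voom on recovered reads called 8 of them lower. MT-ND2 measured 684 and 589 RPKM at day 3 and 473 and 549 RPKM at day 5. The replicates of these genes differed widely, and without drug day 5 library B the list median was -0.36. The same days in DMSO gave 3 of the 6 PRMT5 complex and partner genes lower in limma (median -0.12, under the drug -0.16). Of the 13 mitochondrial genes 3 were lower there (median -0.25). None of either list was higher in DMSO.

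**Figure D2:**
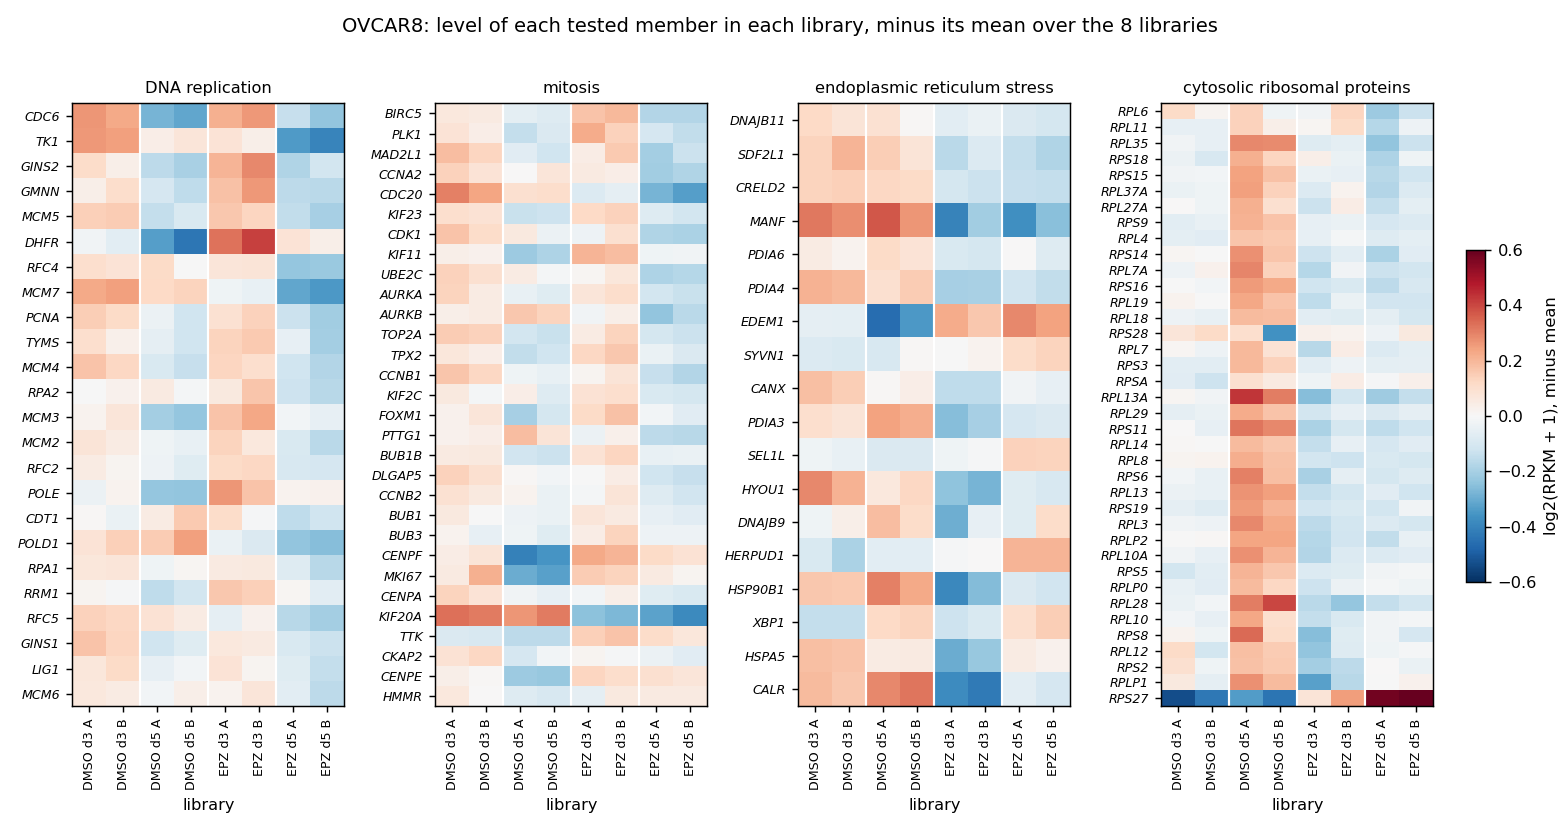
Level of each tested member of 4 gene lists in each of the 8 OVCAR8 libraries as log2(RPKM + 1) minus the gene's mean over those libraries, red for higher and blue for lower, with the color scale ending at 0.6 either way. From drug day 3 to drug day 5 the mean level was lower at day 5 for 24 of 24 replication and 29 of 30 mitosis genes and higher for 14 of 18 endoplasmic reticulum stress genes, and of 38 cytosolic ribosomal protein genes the mean level was higher at day 5 for 21 under the drug and 36 in DMSO.

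In DMSO the same days gave 1313 genes higher (20.7%) and 1009 lower (15.9%), together 36.7% of the 6328 genes. Of the 431 genes higher under the drug 300 were also higher in DMSO, 69.6% of the first list and 22.8% of the second. Of the 709 lower genes 369 were lower in DMSO, 52% and 36.6% of the lists. Opposite calls were made for 23 and 27 of them. Across the 6328 genes the 2 time changes correlated with a Pearson r of 0.22 and a Spearman rho of 0.43. Over the 2290 genes with a mean of at least 5 RPKM, without the 4 ribosomal RNA locus genes, r was 0.26 and rho 0.50. These values are descriptions, since genes are not independent replicates. The 2 changes share no library but share the line and the fit.

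TXNIP rose 3.07-fold in DMSO, IL32 1.77-fold, IL6 2.17-fold and HLA-B 1.48-fold, and CCND1 fell to 0.483-fold. Of the 12 largest rises under the drug 9 also rose in DMSO, and of the 12 largest falls 11 also fell there. The class I list had 9 of 10 genes higher in DMSO and the NF-kB list 4 of 6. Of the 10 interferon-stimulated genes 5 were higher in DMSO and none lower (median 0.21, under the drug 0.06). DNA replication genes fell in 13 of 24 cases in DMSO (median -0.14) and mitosis genes in 18 of 30 (median -0.15).

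**Figure D3:**
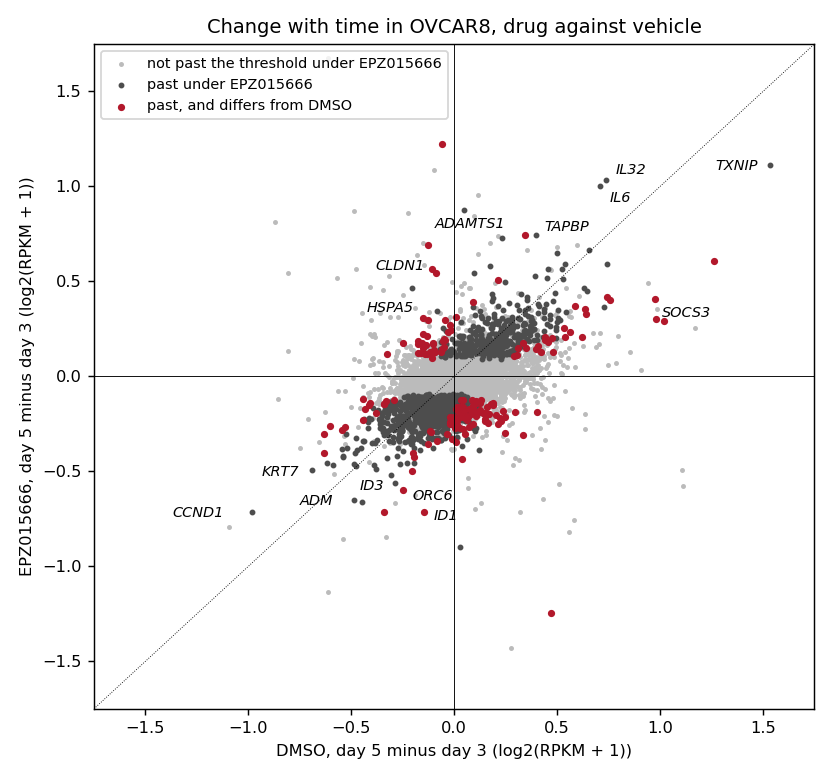
Change from day 3 to day 5 in log2(RPKM + 1) under DMSO (x axis) and EPZ015666 (y axis), with 1 point per gene of the 6328 tested, dark where the drug change passed the threshold and red where it also differed from the DMSO change. The dotted diagonal marks equal changes, 8 genes lie outside the axes, and TXNIP, IL32, IL6 and CCND1 lie in the quadrants of shared direction.

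The difference between the 2 time changes was tested directly, as drug change minus DMSO change. It passed the threshold for 472 of 6328 genes (7.46%), with 146 more positive under the drug (2.31%) and 326 more negative (5.15%). With median-of-ratios scaling the split was 246 and 184, and with rescaling outside the ribosomal RNA locus 190 and 230, so the direction of the excess depends on the scaling. Leaving out any 1 of them left between 0 and 6 calls in limma, while 1438 to 1952 genes had an unadjusted p under 0.05 in those fits. No difference counted below for a gene list passed in any of these fits. The adjusted p-values of differences given below are over the 8 libraries. For the 12 genes with the largest differences they ran from 0.0438 to 0.107 in the fits without 1 library.

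HSPA5 was among the 6 genes with the largest positive difference, of those with a mean of at least 5 RPKM and no clone-based symbol. In DMSO it measured 171 and 170 RPKM at day 3 and 156 in both libraries at day 5, a fall, while it rose under the drug (difference 0.42 ± 0.049, adjusted p = 0.0257 by limma). Both drug libraries at day 3 lay below all other libraries, and at day 5 drug and DMSO overlapped. In the endoplasmic reticulum stress list 5 of 18 differences passed, all positive, while 3 genes rose and 4 fell in DMSO. Of 10 interferon-stimulated genes 2 differences passed, both negative. ADAMTS1 rose under both, from 5.48 and 5.3 to 6.98 and 7.25 RPKM in DMSO, and more so under the drug (difference 0.40 ± 0.064, adjusted p = 0.0309).

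AHNAK, a very large scaffold protein gene, measured 13.4 and 13 RPKM and then 14.3 and 13.7 RPKM under the drug, and 14.4 and 16.8 and then 10.9 and 11 RPKM in DMSO (difference 0.55 ± 0.093, adjusted p = 0.0342 by limma). The drug change did not pass the threshold (adjusted p = 0.414) and DMSO fell. EIF5, a translation initiation factor gene, also fell in DMSO, and measured 30.8 and 31.1 and then 31.4 RPKM in both drug libraries (difference 0.39, drug change not past the threshold). MAP1B, which binds microtubules, and PURB, a single-stranded DNA binding protein gene, fell in DMSO to 0.771-fold and 0.825-fold (differences 0.45 and 0.42). CLDN1, the tight junction gene claudin 1, measured 1.28 and 1.31 RPKM and then 2.3 and 2.39 RPKM under the drug (1.81-fold, adjusted p = 0.00129), and 0.565 and 0.607 and then 0.477 and 0.511 RPKM in DMSO. The drug libraries were above the DMSO libraries at both days (difference 0.63 ± 0.040, adjusted p = 0.0102).

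Among genes with a mean of at least 5 RPKM and no clone-based symbol CEBPD had the most negative difference (-0.73 ± 0.071, adjusted p = 0.0257 by limma). CEBPD is a transcription factor of the acute phase response. Its DMSO libraries went from 54.3 and 58.6 to 113 and 118 RPKM and its drug libraries from 48.2 and 45.7 to 56.7 and 58.4 RPKM. SOCS3, the feedback inhibitor of STAT3 signalling, went from 6.57 and 7.26 to 14 and 15.1 RPKM in DMSO and from 5.44 and 5.61 to 7.68 and 7.6 RPKM under the drug (difference -0.57). In DMSO the fold changes were 2.04 for CEBPD and 2.1 for SOCS3, and under the drug SOCS3 rose 1.38-fold and CEBPD 1.23-fold, the latter with adjusted p up to 0.0837 in fits without 1 library. CDKN1C, the p57 inhibitor of cyclin-dependent kinases, rose 1.9-fold in DMSO and measured 6.72 and 6.35 and then 7.55 and 6.96 RPKM under the drug (difference -0.72, drug change not past the threshold).

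NAPRT, which makes NAD from nicotinic acid, measured 4.85 and 4.39 and then 3.41 and 3.67 RPKM under the drug, and 11.7 and 12.6 and then 14.5 and 16.6 RPKM in DMSO (difference -0.64). BCAM, a laminin receptor gene, measured 6.24 and 5.64 and then 5.05 and 5.1 RPKM under the drug, and 9.63 and 9.75 and then 12.9 and 13.4 RPKM in DMSO (difference -0.59). In both the drug libraries lay below the DMSO libraries at each day. ID1 went to 0.902-fold in DMSO, from 56.4 and 55 to 49.7 and 50.8 RPKM (difference -0.57 ± 0.069, adjusted p = 0.0257 by limma). MSLN, the surface antigen mesothelin, measured 6.34 and 5.57 and then 6.75 and 6.91 RPKM under the drug, and 30.8 and 31.9 and then 48 and 46.7 RPKM in DMSO (difference -0.41, adjusted p = 0.0401, and 0.052 with median-of-ratios scaling). PRMT5 showed 5.04 and 4.99 and then 5.1 and 5.22 RPKM in DMSO (difference -0.16 ± 0.035, adjusted p = 0.048, and 0.0855 with that scaling).

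**Figure D4:**
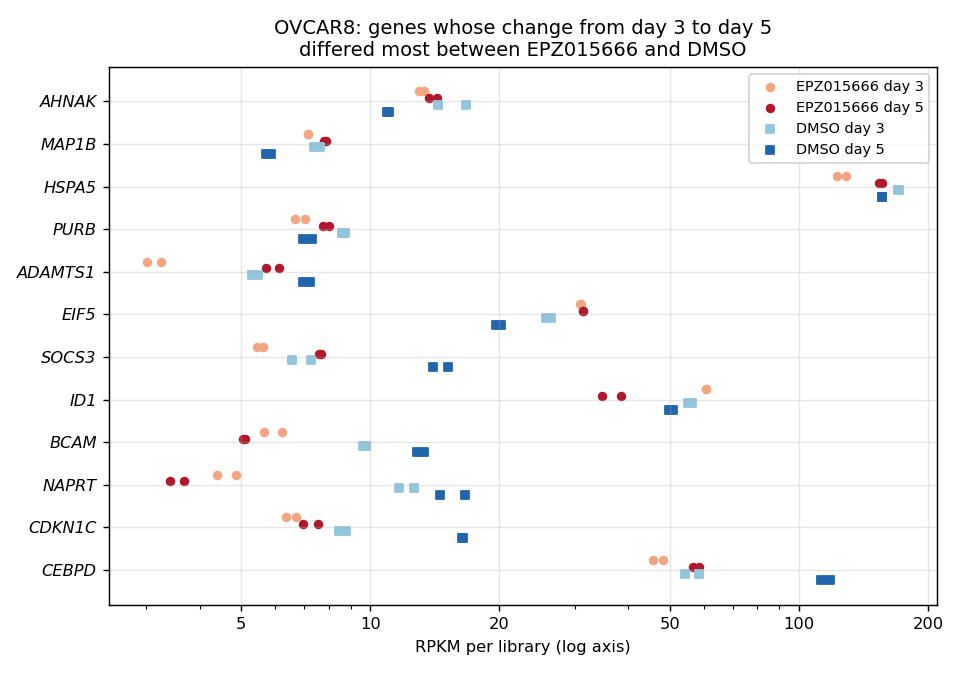
RPKM on a log axis in each of the 8 OVCAR8 libraries for the 6 genes with the most positive and the 6 with the most negative difference between the drug and DMSO time changes, with symbols as in the plot of the largest rises and falls. In the upper 6 genes DMSO fell or rose less than the drug libraries, and in CEBPD, CDKN1C and SOCS3 the dark squares stand far to the right of all other points.

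Cytosolic ribosomal protein genes were the list with the widest gap between the median changes. In DMSO 28 of 38 rose and none fell (median 0.23), and under the drug 2 of 38 rose, neither without drug day 5 library B, and none fell in limma (median 0.01), where 4 were lower at an unadjusted p under 0.05. Limma-voom on recovered reads called 3 of 39 higher and 3 lower under the drug. The difference passed for 13 of the 38, all negative, for 8 with median-of-ratios scaling and for none without drug day 5 library B. Limma-voom called 29 of 39 differences negative and none positive. RPL3, chosen after its values were seen, measured 192 and 199 and then 203 and 199 RPKM under the drug. In DMSO it measured 211 and 210 and then 262 and 251 RPKM. Nuclear genes of oxidative phosphorylation showed the same layout, with 13 of 25 higher in DMSO (median 0.13), 2 of 25 lower under the drug (median -0.07) and 5 negative differences. These 5 became 1 with median-of-ratios scaling and 15, all negative, with limma-voom. UQCRQ, a subunit of respiratory complex III, went to 0.796-fold under the drug (adjusted p = 0.0203 by limma, up to 0.0838 in fits without 1 library) and to 1.05-fold in DMSO. Of 17 mitochondrial ribosome genes 6 fell under the drug, none of them without drug day 5 library B, and 2 rose in DMSO. DNA replication genes differed in 4 of 24 cases, all negative, among them TK1 (difference -0.23) and MCM7 (-0.18), and in none with either rescaling. Limma-voom called 8 of 28 differences of these genes negative and 1 positive.

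**Figure D5:**
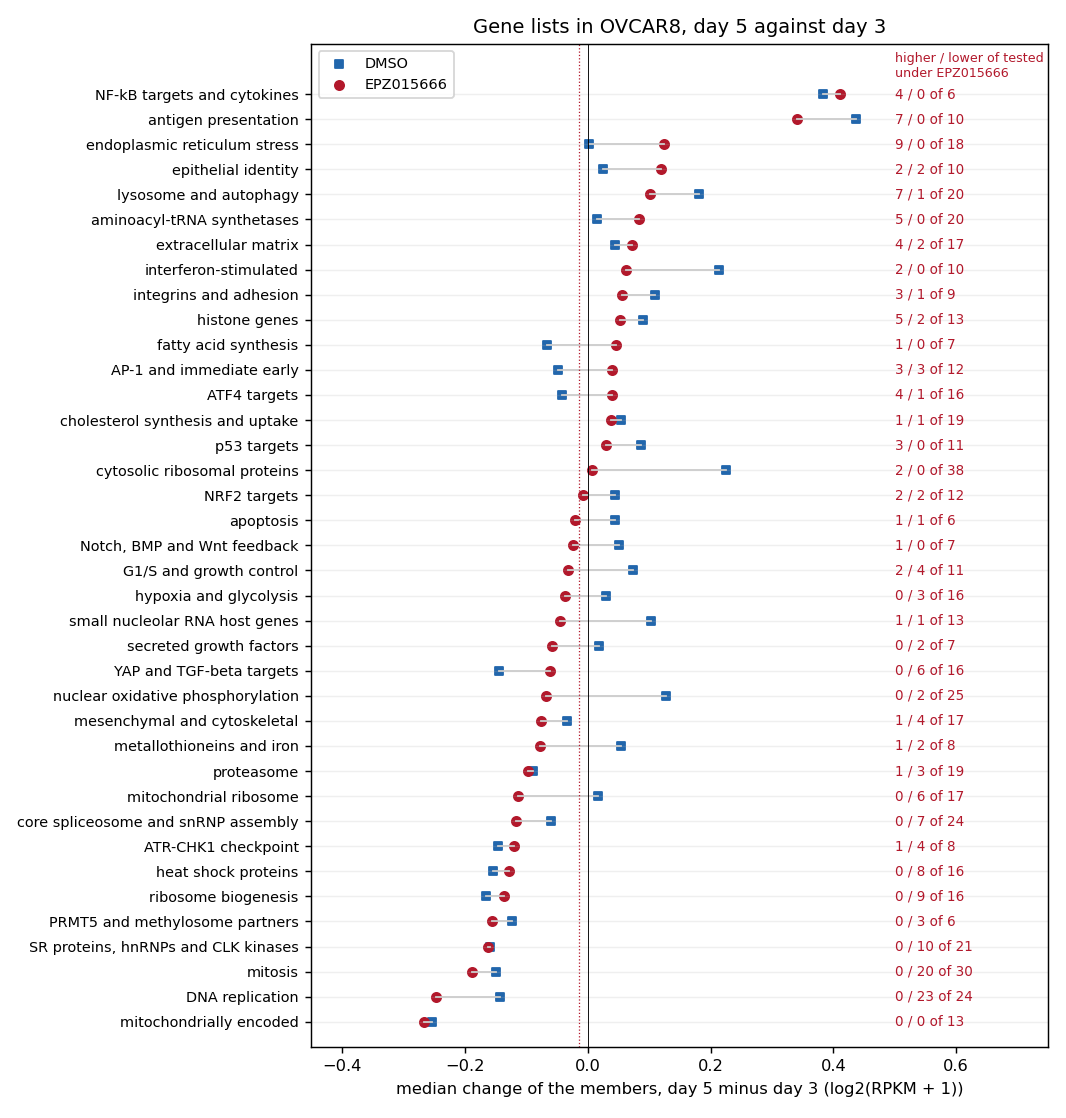
Median change from day 3 to day 5 in log2(RPKM + 1) of the tested members of each gene list with at least 6 of them, as red circles for EPZ015666 and blue squares for DMSO, ordered by the drug value, with the drug counts higher and lower at the right and the median of all genes under the drug as a dotted line. The 2 symbols lie close for NF-kB targets, mitosis and heat shock proteins, and far apart for cytosolic ribosomal proteins (0.01 and 0.23) and nuclear oxidative phosphorylation (-0.07 and 0.13).

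In BT549 under the same compound 24 of 6249 genes were higher at day 5 (0.384%) and 29 lower (0.464%), together 0.848%, and leaving out 1 of its drug libraries left 0 to 30 calls in limma, with 506 to 876 genes at an unadjusted p under 0.05. It left 0 without either day 5 library, so each single-gene change named for BT549 depends on them. BT549 drug day 3 library A had 1.435% of its reads at the ribosomal RNA locus and without it 10 genes were called in BT549. Rescaling outside that locus gave 55 calls in BT549 in place of 53, and 551 differences between the lines in place of 485. It also replaced the deposited library size. The OVCAR8 and BT549 changes share no library and were compared over the 5370 genes tested in both, where the change differed for 485 genes (9.03%), 234 more positive in OVCAR8 (4.36%) and 251 more negative (4.67%). Without BT549 drug day 3 library B 553 genes differed, and without any other single drug library of the 2 lines 162 to 271. Of these 5370 genes 995 passed in OVCAR8 and 40 in BT549. Passing in both were 16 genes, of which 9 moved the same way (FOXD2-AS1, TXNIP, HIST2H2BE, CTGF, ACAT2, CTSB, CTSL, THBS1 and TPM1) and 7 the opposite way (TRNP1, MMACHC, CCDC80, CLDN1, NT5E, CD24 and SCD).

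TXNIP measured 9.93 and 10.8 and then 16.2 and 17.2 RPKM in BT549, a smaller rise than in OVCAR8 (difference 0.47 ± 0.118, adjusted p = 0.0325 by limma). CLDN1 measured 2.97 and 2.75 and then 1.94 and 1.85 RPKM in BT549, a fall where OVCAR8 rose (difference 0.96 ± 0.056, adjusted p = 1.88e-05). SCD, the stearoyl-CoA desaturase, measured 518 and 507 and then 379 and 383 RPKM in BT549, and in OVCAR8 132 and 131 and then 148 in both libraries, a rise whose adjusted p of 0.0225 reached 0.0985 in fits without 1 library (difference 0.60 ± 0.054, adjusted p = 0.000226). BIRC5 measured 19.3 and 19.9 and then 20.8 in both libraries in BT549 (difference -0.44 ± 0.041, adjusted p = 0.000234). The change with time in BT549 DMSO cultures was not tested, so differences between lines under the drug are not set against time alone. Of 30 mitosis genes 16 differed, all more negative in OVCAR8, and of 23 DNA replication genes 7. More positive in OVCAR8 were 6 of 18 genes of endoplasmic reticulum stress, 6 of 9 of class I antigen presentation and 12 of 18 of cholesterol synthesis and uptake, the last with 7 of 18 lower in BT549 and 1 higher and 1 lower of 19 in OVCAR8.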

How the data were processed

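Poly(A) RNA of OVCAR8 and BT549 cells was extracted and sequenced on stranded libraries, per the labels' protocols. The authors deposited RPKM for 16591 gene symbols in 24 libraries. Per the submitters' processing notes, featureCounts and GRCh38 were used. Their versions, the aligner, the annotation and the strand setting of the counting were not given in the sources used here. RPKM times the gene's whole span in GENCODE v29 gave whole reads for 100% of nonzero values under 1000 reads (tolerance 0.02 of a read). The lengths are therefore gene spans, and levels are not compared between genes.

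From these values log2(RPKM + 1) was computed, genes with a mean of at least 1 RPKM over a line's 8 libraries were kept, and each line was fitted with limma 3.58.1 (R 4.3.3), using a mean per group for 4 groups and a trended variance. Tests were two-sided, with Benjamini-Hochberg adjustment over all genes tested and a threshold of 0.05. To compare OVCAR8 with BT549, the libraries of both lines were fitted together, over genes that passed the RPKM filter in each line. The spread in that comparison was thus pooled over both lines. The log2 scale with a pseudocount of 1 understates changes of low genes. Fold changes are ratios of mean RPKM.

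The groups, members and lists were chosen with earlier results of these data known. The 41 gene lists had 874 members, of which 783 were in the table. Named are the 12 largest rises and falls past the threshold with at least 5 RPKM in the higher group and no overlap. Also named are the 6 largest differences from DMSO each way past the threshold with a mean of at least 5 RPKM. Genes with clone-based symbols, which are made from the name of a sequenced clone, were left out of these rankings. From every list the 4 genes or fewer that ranked first by adjusted p were named, and 10 key genes were added. Other names, such as single list members that illustrate a count, promoter genes and genes that passed in both lines, were chosen after their values were seen. The scripts were tested on simulated data. Alternatives were a pseudocount of 0.1, no filter, a mean of at least 5 RPKM, median-of-ratios scaling and the replicate letter as a block. Others were rescaling outside the ribosomal RNA locus, 1 fit over 24 libraries, a fit of only the libraries compared and limma-voom on recovered reads. The rescaling used the recovered reads outside the locus in place of the deposited library size. Each OVCAR8 library and each BT549 drug library was also left out in turn, but no BT549 DMSO library. The comparison between lines was refitted only without drug libraries. Values of some single genes are not reported here.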

Additional observations from a re-analysis of the deposited data

Results flagged for a closer look

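These values concern changes that differed between drug and vehicle or between lines by a direct test in limma. The change from day 3 to day 5 in OVCAR8 differed between EPZ015666 and DMSO for 472 genes and, under EPZ015666, between OVCAR8 and BT549 for 485 genes. None of the single-gene differences named here between drug and DMSO kept an adjusted p under 0.05 in each of the fits without 1 library. More positive under the drug on the log2(RPKM + 1) scale were AHNAK (0.55), MAP1B (0.45), HSPA5 (0.42), PURB (0.42), ADAMTS1 (0.40) and EIF5 (0.39). More negative were CEBPD (-0.73), CDKN1C (-0.72), NAPRT (-0.64), BCAM (-0.59), ID1 (-0.57), SOCS3 (-0.57), MSLN (-0.41), ORC6 (-0.35) and PRMT5 (-0.16). With the replicate block CDKN1C passed, at an adjusted p of 0.0341, and the other 14 had 0.068 or more. With no filter on low values 7 did not pass, SOCS3 (0.0527), PRMT5 (0.0618), ADAMTS1 (0.0621), NAPRT (0.0706), AHNAK (0.0722), MSLN (0.0785) and ORC6 (0.0922). With median-of-ratios scaling MSLN (0.052), ORC6 (0.0582) and PRMT5 (0.0855) did not pass, and with rescaling outside the ribosomal RNA locus ORC6 (0.0529) and PRMT5 (0.0579) did not. MSLN also missed the threshold with a pseudocount of 0.1 (0.0502), and PRMT5 with limma-voom (0.0844) and in 1 fit over 24 libraries (0.141).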

How the results depend on the processing

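In OVCAR8 under EPZ015666 the 1140 calls became 589 with a mean of at least 5 RPKM, 343 in a fit of only the 4 libraries compared, 2714 with limma-voom on recovered reads and 662 with the replicate block, and 234 to 1033 without 1 library. Every one of the 1140 genes that a setting tested kept its direction there. Only the rescalings and limma-voom could have changed a direction, because the days of these genes did not overlap. The 2322 calls in DMSO became 1022 with a mean of at least 5 RPKM, 4618 with limma-voom, and 1178 to 2309 without 1 library (1178 without DMSO day 3 library A, 1201 without B and 1450 without DMSO day 5 library A). Median-of-ratios scaling changed the DMSO split from 1313 higher and 1009 lower to 1161 and 1178, and rescaling outside the ribosomal RNA locus to 1154 and 1230.

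The 472 differences between drug and DMSO became 149 with no filter, 832 in 1 fit over 24 libraries, 1971 with limma-voom, 5 with the replicate block, and 0 to 6 without 1 library. For this comparison the fit of only the libraries compared is the main fit itself. The 53 calls in BT549 became 2 with the replicate block (limma, 804 genes at an unadjusted p under 0.05) and 0 to 30 without 1 library. The 485 differences between lines became 858 with no filter, 199 with a mean of at least 5 RPKM and 162 to 553 without 1 library, and their split of 234 and 251 became 310 and 179 with median-of-ratios scaling and 217 and 334 with rescaling outside the ribosomal RNA locus. The limma-voom fit, the fit over 24 libraries and the fit of only the libraries compared were not run for BT549. The cause of these shifts was not tested.

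The labels do not say whether the letters A and B pair the OVCAR8 libraries. Deviations of same-lettered libraries correlated between -0.50 and 0.08 over the pairs of groups. Whether same-lettered libraries shared a culture or a preparation was not tested, and the replicate block takes the letters as given. Of the 143 named genes past the threshold 119 stayed past it with the block and 61 without drug day 5 library B. The number of libraries, 2 a group, limits the precision. Replicates differed by more than counting error, with gene chi-squares at a median of 1.87 to 3.51 times the value that counting error gives.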
